A study of Mus musculus with 50 samples.

Results

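The genotype difference in quadriceps muscle was set against the genotype difference in the white fat around the gonads (perigonadal white adipose tissue, pgWAT) at 6 h after clozapine N-oxide (CNO), gene by gene. The libraries were chosen by their titles, which took 32 of the 50 libraries of the series: 20 from quadriceps of clamped mice (10 WT, 10 TG) and 12 from pgWAT at 6 h (6 WT, 6 TG). All were male mice with hM3DGq, an engineered Gq-coupled receptor through which CNO activates neurons. TG mice were positive and WT mice negative for a Cre recombinase driven by Gfral, and every mouse was given CNO at a dose of 1 mg/kg. The receptor construct and the drug are thus common to all groups, and no group without CNO was used here. The sources used here give neither the age of the mice nor the time between CNO and muscle collection. The labels do not say that replicates came from different animals, and p-values then describe only how much these samples vary. Tissue, clamp, library kit and sequencing depth change together between the sets and cannot be told apart: the quadriceps libraries were made with molecular identifiers and the pgWAT libraries at 6 h without.

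GFRAL is the receptor of the stress hormone GDF15 and is made by neurons of the hindbrain, where it is known for lowering food intake and for raising circulating glucocorticoids. Skeletal muscle and white fat both take up glucose under insulin, and both answer to glucocorticoids, the adrenal hormones whose nuclear receptor binds DNA and switches on genes such as Fkbp5, Tsc22d3 and Per1. The series was designed around tissues with lowered (quadriceps) and raised (pgWAT) glucose uptake. The comparison asks which transcripts changed alike in both tissues, which changed in 1 of them, and which changed in opposite directions.

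Gene counts ranged from 959980 to 2613670 per library in quadriceps and from 9150500 to 12883500 in pgWAT at 6 h. A count of 0 allows up to 3 counts, or 1.15 to 3.13 and 0.233 to 0.328 CPM (counts scaled to the library total), which covers counting error only. Gfral itself had 0 counts in quadriceps and 5 counts in 2 pgWAT libraries, so it cannot check the genotype labels. The summed level of 7 adipocyte markers was 31706 to 53740 CPM in pgWAT and 545 to 1359 CPM in quadriceps, and that of 7 skeletal muscle fibre markers was 38089 to 66456 CPM in quadriceps and 23.7 to 121 CPM in pgWAT; the sets were scaled separately. Some libraries stood apart: WT replicates 2 and 10 of quadriceps held 2793 and 1554 CPM of the heat shock transcripts Hspa1a, Hspa1b and Dnajb1 together, against 35.7 to 281 CPM in the other quadriceps libraries. TG replicate 2 of pgWAT held 1376 CPM of liver transcripts, against 47.5 to 76.6 CPM in the other TG libraries of that set, and WT replicate 2 of quadriceps held 236 CPM, against at most 3.92 CPM in the other quadriceps libraries. The treatment entry of TG replicate 10 of quadriceps names 1 h while its title says clamped.

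A single model was fitted over the 7779 genes with enough counts in both sets, and it gave the TG minus WT difference in each set and the interaction, which is the pgWAT difference minus the quadriceps difference. All differences are log2 values with a standard error (SE), and a gene is called when the adjusted p of edgeR's quasi-likelihood test is below 0.05. In quadriceps 175 genes were called (2.25% of those tested), 87 higher (1.12%) and 88 lower (1.13%) in TG. In pgWAT at 6 h 1166 were called (15%), 561 higher (7.21%) and 605 lower (7.78%). The interaction called 519 genes (6.67%), of which 286 (3.68%) had the more positive difference in pgWAT and 233 (3%) the more negative. Across the 7779 genes, which are not independent replicates, the quadriceps and pgWAT differences correlated with a Pearson r of 0.19 and a Spearman rho of 0.19. The sign was the same for 56.4% of all genes, 76.0% of those called in quadriceps and 65.6% of those called in pgWAT.

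Called in both sets were 66 genes. Of these, 54 moved in the same direction (concordant, 32 higher and 22 lower in TG) and 12 in opposite directions with a called interaction (opposite). The concordant genes made up 30.9% of the quadriceps calls and 4.63% of the pgWAT calls. A further 345 genes (196 higher, 149 lower) were called in pgWAT and by the interaction while the 95% interval of their quadriceps difference lay within 1.5-fold either way. These are termed pgWAT-restricted, and 33 genes (18 higher, 15 lower) that met the mirrored rule are termed quadriceps-restricted. The other tissue's interval passed 1.5-fold for 72 and 4 more genes, which were left undecided. A further 683 genes called in pgWAT alone and 72 called in quadriceps alone had no called interaction, so that a difference between the sets was not shown for them. The pgWAT libraries were also the deeper ones: thinned to the quadriceps depth, pgWAT gave 624 calls, 311 interaction calls, 210 pgWAT-restricted genes (188 of them shared with the 345) and 18 quadriceps-restricted genes. Thinning left 38 concordant genes, 30 of them among the 54, and 9 opposite genes, 7 of them among the 12. The alternative test limma voom kept 34 of the 54 concordant genes, and separate fits per set kept 35. Without the 4 libraries that stood apart or were in doubt (quadriceps WT 2, WT 10 and TG 10, pgWAT TG 2), quadriceps gave 111 calls and the concordant genes numbered 31, of which 28 were among the 54; this alternative was chosen after seeing the data.

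**Figure D1:**
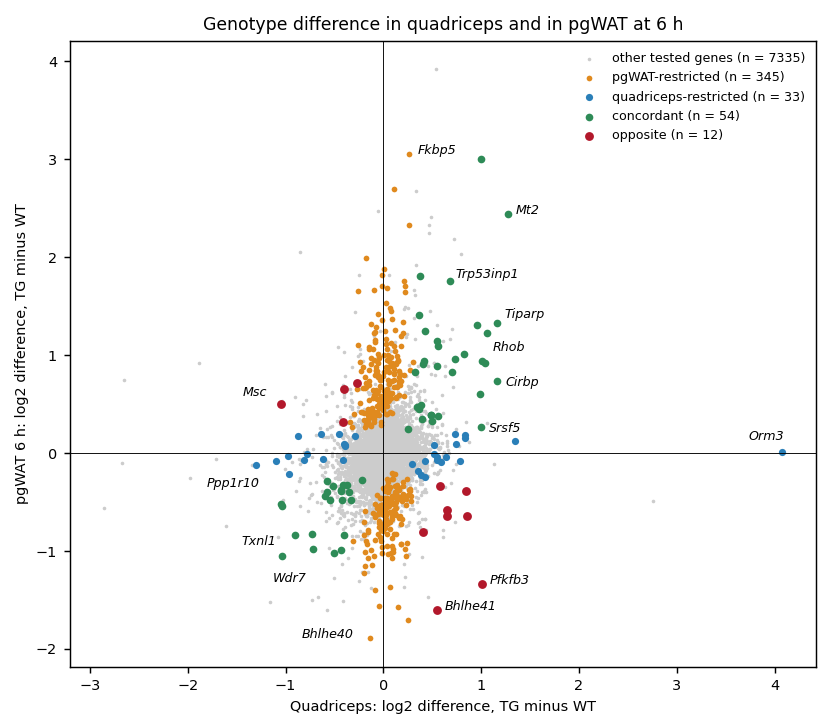
Each point is 1 of the 7779 genes, placed by its log2 difference (TG minus WT) in quadriceps (horizontal) and in pgWAT at 6 h (vertical), and coloured by class. The 345 pgWAT-restricted genes lie along the vertical axis, the 33 quadriceps-restricted genes along the horizontal axis, the 54 concordant genes in the lower left and upper right and the 12 opposite genes in the other quadrants.

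Among concordant genes that rose, Rhob and Tiparp had differences of nearly the same size in both tissues. Rhob (ENSMUSG00000054364, GRCm38 chromosome 12, 8497661 to 8500009, minus strand) encodes an immediate-early small GTPase of endosomes and the actin cytoskeleton. It was at 71.8 CPM in the lowest, 83.1 in the median and 109 in the highest WT quadriceps library, and at 145, 170 and 244 in TG. In pgWAT it was at 87.5, 102 and 111 CPM in WT and at 197, 241 and 259 in TG. No TG library overlapped a WT library in either tissue, which held for 24 genes in quadriceps (0.309% of those tested; 0.18% with TG higher and 0.129% with TG lower) and 670 in pgWAT (8.61%; 4.49% higher and 4.13% lower). The difference was 1.06 (SE 0.09, adjusted p = 7.4e-12) in quadriceps and 1.23 (SE 0.10, adjusted p = 2.53e-13) in pgWAT by edgeR, and the interaction of 0.17 had a 95% interval of -0.09 to 0.43. Tiparp (chromosome 3, 65528410 to 65555518), which encodes an ADP-ribosyltransferase that represses the aryl hydrocarbon receptor, was at 70.6, 81.1 and 124 CPM in WT and 118, 195 and 256 in TG quadriceps. In pgWAT its levels were 58.2, 64.9 and 68.8 in WT and 137, 163 and 184 in TG. All TG libraries lay above the highest WT library in pgWAT and 9 of 10 did so in quadriceps, with differences of 1.16 (SE 0.11) and 1.33 (SE 0.12).

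Rin2, a guanine exchange factor for Rab5, rose by 0.83 in quadriceps and 1.01 in pgWAT. Rnf169, a ubiquitin-binding protein of DNA repair, rose by 0.96 and 1.31, and Fam117b, of little known function, by 0.55 and 0.89. In each of these the interaction was not called (adjusted p = 0.203 to 0.623), 8 of 10 TG quadriceps libraries lay above the highest WT library, and the pgWAT groups did not overlap. Of the other higher concordant genes, Mt2, a metal-binding metallothionein, rose by 1.27 and 2.44, and the kinase gene Sgk1, which insulin and glucocorticoids control, by 0.42 and 1.25. Frat2, an inhibitor of the kinase GSK3, rose by 1.04 and 0.92. Net1, an activator of the GTPase RhoA, rose by 1.01 (SE 0.26) and 0.94 (SE 0.26), with adjusted p-values of 0.0376 and 0.0114 by edgeR.

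For 12 of the 54 concordant genes the interaction was also called, 11 with the larger difference in pgWAT and 1, Srsf5, with the larger difference in quadriceps. Trp53inp1, a p53-inducible gene for a protein of autophagy and cell stress, was at 37.5, 44.3 and 57 CPM (lowest, median, highest) in WT and 54.2, 71.0 and 91 in TG quadriceps. In pgWAT it was at 16.8, 20.9 and 22.8 in WT and 60.9, 70.5 and 75.7 in TG. Its difference was 0.68 (SE 0.09) in muscle and 1.75 (SE 0.09) in fat, with an interaction of 1.07 (adjusted p = 8.38e-08 by edgeR). Nfkbia, the inhibitor that holds NF-κB in the cytoplasm, followed the same order, with 0.56 (SE 0.08) in quadriceps and 1.1 (SE 0.10) in pgWAT. Its groups did not overlap in either tissue: 391 to 514 CPM in WT and 549 to 728 in TG quadriceps, 287 to 397 in WT and 583 to 969 in TG pgWAT.

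Cirbp encodes an RNA-binding protein induced by mild cold and Srsf5 a serine/arginine-rich splicing factor, and both rose in both tissues. Cirbp was at 20.2, 28.4 and 38 CPM in WT and 43.4, 60.0 and 83.1 in TG quadriceps, and at 45.8, 50.5 and 62.3 in WT and 75.5, 87.5 and 103 in TG pgWAT. The groups did not overlap in either tissue. The difference was 1.17 (SE 0.12) in muscle and 0.74 (SE 0.11) in fat, and the interaction of -0.43 was not called (95% interval -0.75 to -0.11, adjusted p = 0.106 by edgeR). Srsf5 rose from 167 to 258 CPM in WT to 348 to 543 CPM in TG quadriceps, and from 194 to 221 to 227 to 288 CPM in pgWAT. Its difference of 1.00 (SE 0.08) in quadriceps and 0.27 (SE 0.09) in pgWAT gave an interaction of -0.73 (adjusted p = 4.62e-05 by edgeR). The pgWAT call of Srsf5 lies at the threshold (adjusted p = 0.0496), and it was lost with 1 scaling over both sets (0.0555), with relative log expression size factors (0.0521) and with pgWAT thinned (0.162), and in 21 of 32 fits that left out 1 library. Just outside the threshold lay Ccny, higher in both sets with an adjusted p of 0.0528 in quadriceps. Rbm3, the other well known cold-induced RNA-binding gene, did not have enough counts to be tested.

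The 2 concordant genes that fell with the smallest p-values, Txnl1 and Wdr7, are neighbours. Txnl1, a thioredoxin-like partner of the proteasome, lies on the minus strand of chromosome 18 (63661094 to 63708801), and Wdr7, which works with the proton pump of endosomes and vesicles, on the plus strand (63708685 to 63989776). The gene models overlap by 117 bases at their starts, and because the counting's strand setting is not given in the sources used here, reads in the overlap cannot be assigned to either gene. Txnl1 was at 153, 183 and 220 CPM in WT and 85.2, 99.1 and 121 in TG quadriceps, and at 56.4, 60.0 and 63.7 in WT and 31.7, 32.9 and 38 in TG pgWAT. Wdr7 was at 31.4, 45.5 and 62.5 in WT and 14.2, 22.8 and 30.6 in TG quadriceps, and at 18.1, 19.9 and 21.9 in WT and 7.57, 9.25 and 11.8 in TG pgWAT. For both genes every TG library lay below every WT library in both tissues. Txnl1 fell by 0.90 (SE 0.07) in quadriceps and 0.84 (SE 0.08) in pgWAT, and Wdr7 by 1.03 (SE 0.13) and 1.05 (SE 0.13), with interactions of 0.06 (95% interval -0.15 to 0.28) and -0.02 (-0.38 to 0.34). With pgWAT thinned to the quadriceps depth the Wdr7 difference there was -0.60 (adjusted p = 0.0889 by edgeR). The other 5 tested genes within 1 Mb had differences of -0.15 to 0.30 in quadriceps and -0.18 to 0.10 in pgWAT, and 0 of them were called in either set.

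Among the other lower concordant genes, Creb1, the transcription factor that answers to cyclic AMP, fell by 0.57 (SE 0.08) in quadriceps and 0.39 (SE 0.08) in pgWAT. Its WT levels of 70.8 to 99.1 CPM in quadriceps and 54 to 71.9 CPM in pgWAT did not overlap the TG levels of 50.9 to 63.9 and 45.2 to 51.5. Baz1b, a subunit of chromatin remodelling complexes, fell by 0.43 and 0.48, and Vgll4, a transcriptional cofactor that competes with YAP for TEAD factors, by 0.71 and 0.98. The splicing protein gene Luc7l3 fell by 0.34 and 0.48. Wdr82, a subunit of histone H3 methyltransferase complexes, fell by 0.36 and 0.40 and Tmod3, which caps actin filaments, by 0.37 and 0.32. The quadriceps calls of Wdr82 and Tmod3 were lost in 4 and 6 of 12 other settings. Also lower in both tissues were the insulin receptor substrate Irs2 (-0.51 and -1.02), the interferon regulatory factor Irf1 (-0.44 and -0.99) and Id1, an inhibitor of helix-loop-helix factors (-0.73 and -0.83). The quadriceps calls of Irf1, Irs2 and Id1 had adjusted p-values of 0.0474, 0.0397 and 0.0396 by edgeR, and that of Irf1 was lost in 5 of 12 other settings and in 19 of 32 fits that left out 1 library.

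**Figure D2:**
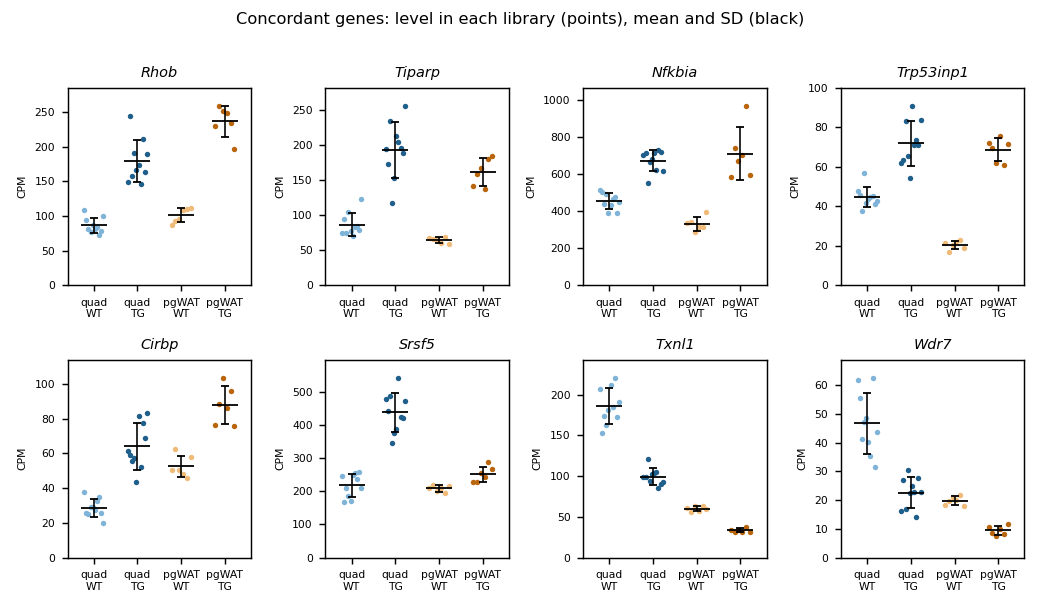
Levels of 8 concordant genes in CPM (vertical axes, from 0) in each library, with the group mean and SD in black, for 10 WT and 10 TG quadriceps and 6 WT and 6 TG pgWAT libraries. Rhob, Nfkbia, Cirbp, Srsf5, Txnl1 and Wdr7 show no overlap between WT and TG in either tissue, and Trp53inp1 shows the larger step in pgWAT.

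The promoter windows of 5 concordant genes are given, and 3 of them hold one of the motifs searched for. In choosing them, named concordant genes whose window held one of the first 3 motifs below were placed first. That 3 of the 5 hold a motif is thus partly set by the choice and does not measure how common the motifs are. Each window runs from 250 bases before to 50 bases after a RefSeq transcription start on GRCm38.p6, 5′ to 3′ on the strand of the gene. Capitals mark matches on either strand to ACANNNTGT (the glucocorticoid receptor's spaced repeat), CACGTG (the E-box of clock factors), TGACGTCA (the cyclic AMP response element), GAANNTTC (a heat shock factor repeat) or TATAAA (the TATA box). Vgll4 lies at chr6:114969154-114969453 (minus), Wdr82 at chr9:106170679-106170978 (plus), Rhob at chr12:8499960-8500259 (minus), Tiparp at chr3:65528197-65528496 (plus) and Nfkbia at chr12:55492598-55492897 (minus).
Vgll4: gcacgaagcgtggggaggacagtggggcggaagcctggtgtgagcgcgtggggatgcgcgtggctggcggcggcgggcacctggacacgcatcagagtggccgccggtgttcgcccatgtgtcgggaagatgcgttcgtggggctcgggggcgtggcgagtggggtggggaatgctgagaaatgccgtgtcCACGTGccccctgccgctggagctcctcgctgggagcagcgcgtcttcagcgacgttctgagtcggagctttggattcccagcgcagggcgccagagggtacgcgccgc
Wdr82: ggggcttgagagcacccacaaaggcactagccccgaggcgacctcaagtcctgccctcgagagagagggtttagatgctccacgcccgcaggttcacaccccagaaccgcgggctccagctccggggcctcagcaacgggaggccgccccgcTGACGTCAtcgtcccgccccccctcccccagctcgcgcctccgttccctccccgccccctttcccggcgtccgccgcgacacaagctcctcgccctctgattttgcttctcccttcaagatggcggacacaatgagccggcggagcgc
Rhob: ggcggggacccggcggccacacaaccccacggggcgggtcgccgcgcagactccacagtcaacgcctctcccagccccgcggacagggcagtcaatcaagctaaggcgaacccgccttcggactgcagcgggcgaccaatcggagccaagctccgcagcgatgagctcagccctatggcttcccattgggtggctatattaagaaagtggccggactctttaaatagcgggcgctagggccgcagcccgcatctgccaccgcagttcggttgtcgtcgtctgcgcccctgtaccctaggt
Tiparp: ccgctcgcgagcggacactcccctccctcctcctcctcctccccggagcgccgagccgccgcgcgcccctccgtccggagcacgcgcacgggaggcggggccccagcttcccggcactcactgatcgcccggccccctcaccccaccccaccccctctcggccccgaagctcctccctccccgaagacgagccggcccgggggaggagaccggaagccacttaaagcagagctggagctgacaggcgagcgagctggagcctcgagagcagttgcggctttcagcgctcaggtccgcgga
Nfkbia: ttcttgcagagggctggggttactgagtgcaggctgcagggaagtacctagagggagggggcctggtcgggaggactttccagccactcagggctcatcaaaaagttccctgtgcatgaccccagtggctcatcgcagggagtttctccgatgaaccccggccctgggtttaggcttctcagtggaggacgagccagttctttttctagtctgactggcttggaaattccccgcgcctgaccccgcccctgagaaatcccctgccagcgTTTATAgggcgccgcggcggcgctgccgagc
Vgll4 held CACGTG from position -59, Wdr82 held TGACGTCA from -98 and Nfkbia held TATAAA on the opposite strand from position 20, while these letters were not in the windows of Rhob and Tiparp. The table held windows for 29 of the 32 higher and 17 of the 22 lower concordant genes (45 and 21 windows), and for 6154 of all 7779 tested genes (7903 windows). ACANNNTGT was in 4 of the 45 windows of higher genes (8.89%) and in 0 of the 21 of lower genes, against 3.87% of the windows of all tested genes. CACGTG was in 6.67% and 19% against 10.4%, and TGACGTCA in 2.22% and 9.52% against 3.29%. GAANNTTC was in 8.89% and 4.76% against 5.44%, and TATAAA in 13.3% and 4.76% against 7.19%. No test was made of these shares, which rest on few windows.

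The 12 opposite genes were Mtss1, Pfkfb3, Tob1, Hes1, Bhlhe41, Jup, Elmsan1 and Gm7265, higher in TG quadriceps and lower in TG pgWAT, and Glul, Rpp21, Msc and AI464131, with the reverse. Pfkfb3, which makes the sugar phosphate that switches on glycolysis, was at 34.9, 55.9 and 73.9 CPM (lowest, median, highest) in WT and 64.4, 107 and 193 in TG quadriceps. In pgWAT it was at 611, 635 and 841 in WT and 169, 261 and 426 in TG. In muscle 9 of 10 TG libraries lay above the highest WT library, and in fat every TG library lay below the lowest. The difference was 1.00 (SE 0.18, adjusted p = 0.00112) in quadriceps and -1.34 (SE 0.18, adjusted p = 1.64e-06) in pgWAT by edgeR, which made an interaction of -2.34 (95% interval -2.86 to -1.81). Mtss1, whose protein binds membranes and actin, was the gene with the smallest interaction p among them. It was at 62.2, 79.2 and 87.6 CPM in WT and 94.2, 128 and 141 in TG quadriceps, and at 78.3, 89.8 and 103 in WT and 51.6, 57.5 and 65.8 in TG pgWAT. The groups did not overlap in either tissue, and the differences of 0.65 (SE 0.08) and -0.65 (SE 0.09) were of equal size.

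Tob1, an antiproliferative gene whose protein recruits deadenylases to mRNA, rose by 0.40 in quadriceps and fell by 0.81 in pgWAT. The Notch target and repressor Hes1 rose by 0.85 and fell by 0.64, and the clock repressor Bhlhe41 rose by 0.54 and fell by 1.60. Jup, which encodes the junction protein plakoglobin, rose by 0.58 and fell by 0.34. All TG pgWAT libraries lay below the lowest WT library for Tob1, Hes1 and Bhlhe41, and 5 of 6 for Jup. In the reverse direction stood Glul, the glutamine synthetase gene, at 960, 1188 and 1592 CPM in WT and 808, 1036 and 1134 in TG quadriceps, and at 846, 1006 and 1181 in WT and 1461, 1643 and 1760 in TG pgWAT. The quadriceps groups overlapped widely and the pgWAT groups did not, and the differences were -0.27 (SE 0.08) and 0.71 (SE 0.10). Rpp21, a subunit of RNase P, fell by 0.42 and rose by 0.31, and Msc, the bHLH repressor musculin, fell by 1.04 and rose by 0.50.

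The interaction of each of these 9 named genes was called, but a call in 1 of the sets was weak for some. The quadriceps call of Bhlhe41 (adjusted p = 0.0478 by edgeR) was lost in 23 of 32 fits that left out 1 library and that of Glul (0.0422) in 10 of 32. The pgWAT call of Msc (0.0444) was lost in 9 of 32 and that of Jup (0.0323) in 8 of 32, and those of Hes1 and Rpp21 were lost with pgWAT thinned to the quadriceps depth (adjusted p = 0.0879 and 0.339). Mtss1, Pfkfb3 and Tob1 kept their calls in every other setting at the same threshold and in the 32 fits that left out 1 library.

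**Figure D3:**
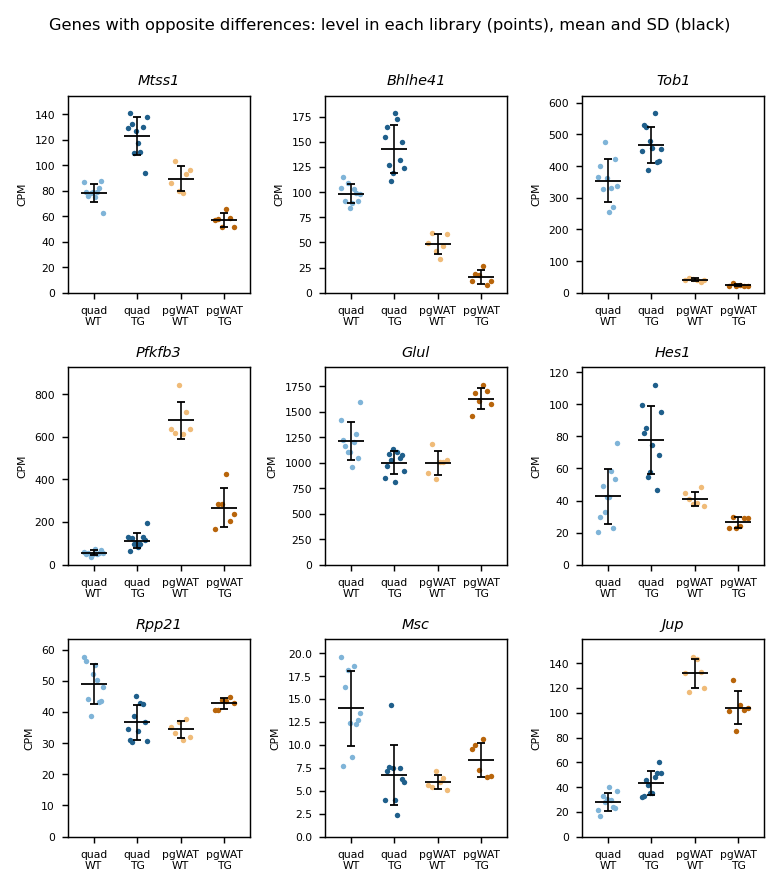
Levels in CPM (vertical axes, from 0) of the 9 named opposite genes in each library, with the group mean and SD in black. For Mtss1 the TG quadriceps libraries (94.2 to 141) lie above WT (62.2 to 87.6) and the TG pgWAT libraries (51.6 to 65.8) below WT (78.3 to 103).

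Among pgWAT-restricted genes, the named members that rose were Hipk1, Tsc22d3, Fkbp5, Stim1, Ttll7 and Arrdc3. Fkbp5, a chaperone partner that restrains the glucocorticoid receptor, was at 40.5, 49.3 and 74.6 CPM in WT and 351, 432 and 502 in TG pgWAT. In quadriceps it was at 153, 240 and 339 in WT and 227, 290 and 345 in TG. The pgWAT groups stood far apart and the quadriceps groups overlapped, with differences of 3.05 (SE 0.14, adjusted p = 4.59e-18) and 0.27 (SE 0.11, adjusted p = 0.285) by edgeR. Hipk1, a nuclear kinase that acts on transcription factors, was at 120 to 164 CPM in WT and 410 to 496 in TG pgWAT, and at 179 to 228 and 189 to 222 in quadriceps, where its difference was 0.04 (SE 0.06). Stim1, the calcium sensor of the endoplasmic reticulum, rose by 1.36 in pgWAT and had a difference of -0.01 (SE 0.07) in quadriceps. The tubulin-modifying enzyme gene Ttll7 rose by 1.45 in pgWAT against 0.08 in quadriceps, and the arrestin-like Arrdc3, which promotes removal of β-adrenergic receptors, by 2.33 against 0.26. Tsc22d3, the glucocorticoid-induced leucine zipper, rose by 1.65 in pgWAT and had a difference of -0.26 (SE 0.08, adjusted p = 0.0683 by edgeR) in quadriceps, where 7 of 10 TG libraries lay below the lowest WT library.

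The named members that fell were Mtus1, Hoxc6, Bhlhe40, Ucp3, Gpr146 and C9orf72. The clock repressor Bhlhe40 was at 27.5, 44.4 and 56.9 CPM in WT and 9.03, 11.2 and 12.9 in TG pgWAT, and at 43.4, 65.6 and 95.8 in WT and 45.9, 60.1 and 75.1 in TG quadriceps. Its difference was -1.89 (SE 0.17) in fat and -0.14 (SE 0.15) in muscle. Ucp3, a mitochondrial carrier of muscle and brown fat, fell by 1.71 in pgWAT, from 10.1 to 25.5 CPM to 2.47 to 8.54 CPM, and had a difference of 0.25 (SE 0.14) in quadriceps. The homeobox gene Hoxc6 fell by 1.14, the tumour suppressor gene Mtus1 by 1.03, C9orf72, which encodes a protein of the endolysosomal system, by 1.02, and the orphan receptor gene Gpr146 by 0.91. In all 12 named pgWAT-restricted genes the pgWAT groups did not overlap, against 8.61% of all tested genes. These 12 were chosen by small interaction p-values from the same data, which favours such a separation. The interval rule bounds the quadriceps difference but does not make it 0: for Fkbp5, Arrdc3, Tsc22d3 and Gpr146 its 95% interval left out 0.

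In pgWAT at 6 h the summed levels of the muscle fibre and of the Schwann cell markers did not overlap between genotypes. The summed level of the 7 muscle fibre markers was 23.7 to 51.7 CPM in WT and 62.8 to 121 CPM in TG pgWAT at 6 h, without overlap, with 1 of the 7 at 0 in WT, while at 1 h it was 15.9 to 57.6 and 9.83 to 81.4 CPM. Of its 3 members tested in both sets, Acta1 was pgWAT-restricted (1.24, SE 0.17, in pgWAT), and Mylpf (-0.11) and Pvalb (0.43) were not called. A separate list of 5 slow muscle fibre markers summed to 1.01 to 2.54 CPM in WT and 0.802 to 1.61 CPM in TG pgWAT at 6 h. Of these 5, 0 were tested in both sets. Schwann cell markers summed to 34.6 to 44.8 CPM in WT and 26.2 to 32.5 CPM in TG pgWAT. Of the 2 members tested in both sets, Mbp, the myelin basic protein gene, was pgWAT-restricted and fell (-0.63). The other had a pgWAT difference above 0 and was not called. In bulk tissue fewer cells of a type and less RNA per cell cannot be told apart, and the part of these cells in the pgWAT differences was not tested. In quadriceps the muscle fibre sum was 38089 to 66456 CPM in WT and 47733 to 55676 CPM in TG.

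The quadriceps-restricted gene with the largest difference was Orm3, an orosomucoid of the acute phase response. It was at 0 to 3.85 CPM in WT and 11.7 to 29.2 CPM in TG quadriceps, and at 36.1 to 49.8 and 25.9 to 53.6 CPM in pgWAT. It rose by 4.08 (SE 0.35, adjusted p = 4.45e-11 by edgeR) in muscle against 0.01 (SE 0.14) in fat. Its WT mean of 1.06 CPM lay under the limit of 3 counts, which makes the size of the fold imprecise, and similar copies of the gene can share its reads. Pnrc2, a nuclear receptor coactivator that also acts in mRNA decay, was at 15.4, 24.2 and 29.6 CPM in WT and 24.3, 44.3 and 57.1 in TG quadriceps and rose by 0.78, with -0.08 in pgWAT. Sertad2, a transcriptional coregulator with a role in fat storage, rose by 0.55 without overlap of the quadriceps groups, with -0.04 in pgWAT. The histone variant gene H3f3b rose by 0.73 (0.20 in pgWAT), and the linker histone genes H1f0 and Hist1h1c, named here after their values were seen, rose by 0.52 and 0.52 (-0.01 and 0.08). Topors, a ubiquitin and SUMO ligase, rose by 0.42 and the Polycomb-linked Asxl2 by 0.38. Their pgWAT differences of -0.24 and -0.23 were not called, with 95% intervals below 0, and the quadriceps call of Asxl2 (adjusted p = 0.0382 by edgeR) was lost in 10 of 32 fits that left out 1 library.

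Of the quadriceps-restricted genes that fell, Ppp1r10, a nuclear regulator of protein phosphatase 1, was at 17.4, 27 and 37 CPM in WT and 5.47, 10.9 and 16.7 in TG quadriceps. In pgWAT it was at 21.5, 26 and 29.8 in WT and 18.9, 24 and 27.3 in TG. All 10 TG muscle libraries lay below the lowest WT library, and the difference was -1.31 (SE 0.16) against -0.12 (SE 0.12) in fat. Slc38a2, the SNAT2 carrier of neutral amino acids that amino acid shortage induces, fell by 0.79 (SE 0.11) against -0.01 (SE 0.13). Its quadriceps levels of 446 to 866 CPM in WT and 231 to 399 CPM in TG did not overlap either. Chd6, a chromatin remodeller, fell by 0.81, the autophagy gene Gabarapl1 by 0.45, the endoplasmic reticulum protein gene Tmcc1 by 0.41 and Thap2, a zinc finger gene, by 0.87. Their pgWAT differences were -0.07, 0.20, 0.09 and 0.18.

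**Figure D4:**
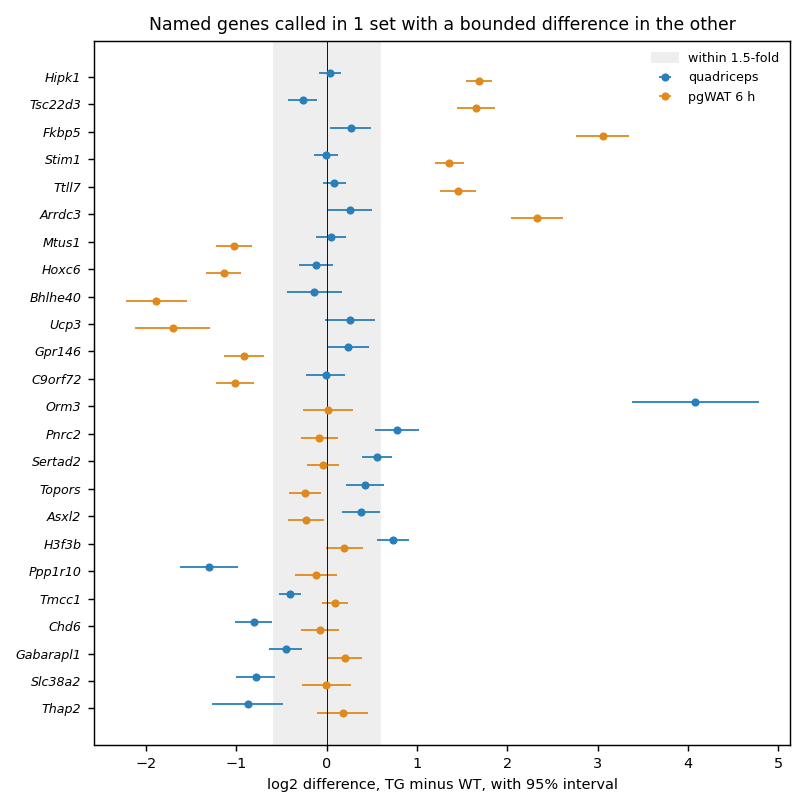
The log2 difference (TG minus WT, horizontal axis) with its 95% interval in quadriceps (blue) and pgWAT at 6 h (orange) for the 12 named pgWAT-restricted and the 12 named quadriceps-restricted genes. The grey band marks 1.5-fold in either direction, and in each row the interval of the tissue without a call lies inside it, as with 0.04 for Hipk1 in quadriceps and 0.01 for Orm3 in pgWAT.

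The 16 gene lists described were chosen with earlier results of these data known, so a ranking of them is no independent support. Among them the glucocorticoid-induced list had the largest median interaction (1.14). Of 29 tested members, 25 rose and 0 fell in pgWAT, 5 rose and 2 fell in quadriceps, and the interaction was called for 20, all with the more positive difference in pgWAT. The called share was 86.2% in pgWAT, 24.1% in quadriceps and 69% for the interaction, against 15%, 2.25% and 6.67% of all tested genes. The median difference was 1.33 in pgWAT and 0.19 in quadriceps, against 0.00 in both for all tested genes. The 5 that rose in both tissues were Rhob, Tiparp, Nfkbia, Sgk1 and Mt2. Called in pgWAT alone and pgWAT-restricted were 8, among them Fkbp5, Tsc22d3, Arrdc2 (2.7 in pgWAT, 0.11 in quadriceps), the C/EBP family gene Cebpd (2.0 and -0.18), the transcription factor Zbtb16 (1.66 and -0.10), the phagocytosis receptor gene Mertk (1.34 and 0.20) and the clock gene Per1 (0.88 and 0.03). For 7 more the quadriceps interval passed 1.5-fold: Ddit4, which restrains mTORC1 (2.41 in pgWAT; 0.49, adjusted p = 0.0558 by edgeR, in quadriceps), the cell cycle inhibitor Cdkn1a (2.04 and 0.80), Mt1 (2.18 and 0.72), Errfi1 (2.25 and 0.47), Gadd45g (2.33 and 0.47), Fam107a (2.68 and 0.34) and Pdk4 (2.47 and -0.05).

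The 2 members that fell in quadriceps were Glul and Dusp1, the phosphatase that ends MAP kinase signals. Dusp1 was at 194, 235 and 448 CPM in WT and 109, 142 and 180 in TG quadriceps, without overlap, and at 45.7, 52.1 and 64.5 in WT and 49.4, 62.5 and 119 in TG pgWAT. Its difference was -0.83 (SE 0.15) in muscle and 0.38 (SE 0.18, adjusted p = 0.186 by edgeR) in fat, with a called interaction of 1.21. Without quadriceps WT replicates 2 and 10 the muscle difference was -0.67 (adjusted p = 0.00378 by edgeR).

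**Figure D5:**
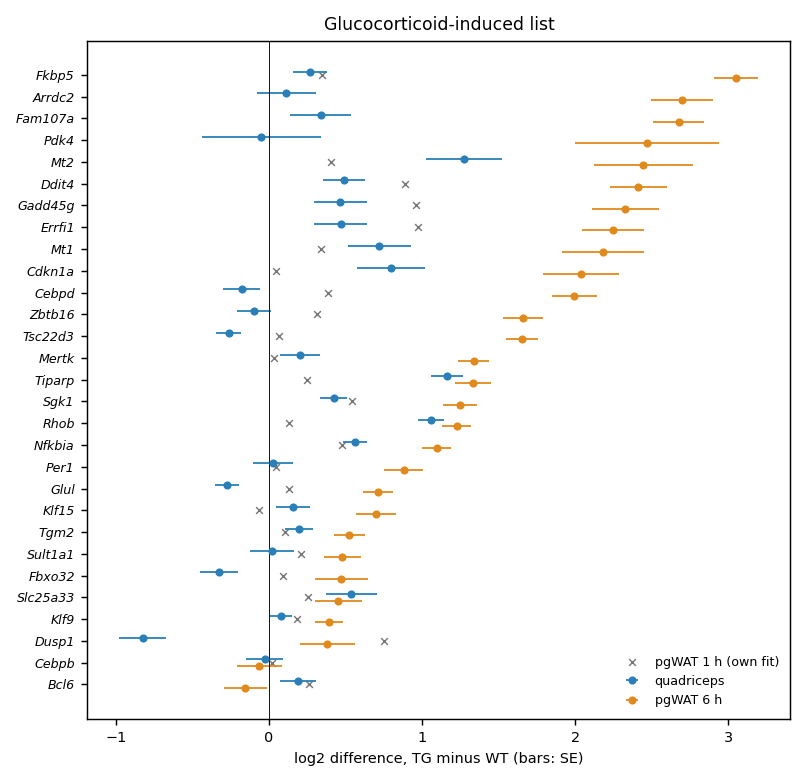
The log2 difference (TG minus WT, horizontal axis) of the 29 tested glucocorticoid-induced genes in quadriceps (blue) and pgWAT at 6 h (orange), with bars of 1 SE, and in pgWAT at 1 h from its own fit (crosses, no error drawn). Of the 29 pgWAT differences 27 lie above 0, up to 3.05 for Fkbp5, and of the 29 quadriceps differences 21 lie above 0, with a median of 0.19.

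The other lists are read against the shares called among all tested genes, which were 15% in pgWAT (7.21% higher, 7.78% lower), 2.25% in quadriceps (1.12% higher, 1.13% lower) and 6.67% for the interaction. In the list of atrophy and autophagy genes, 23 tested, pgWAT had 8 higher and 1 lower and quadriceps 1 higher (Trp53inp1) and 1 lower (Gabarapl1). The interaction was called for 8, each more positive in pgWAT, so that 39.1% were called in pgWAT, 8.7% in quadriceps and 34.8% by the interaction. Ddit4, Cdkn1a and Fbxo32 are shared with the glucocorticoid list. The members included Depp1, a FOXO target (1.82 in pgWAT, -0.25 in quadriceps), and the mitophagy receptor gene Bnip3 (0.39 and -0.07), while the muscle ubiquitin ligase gene Fbxo32 was called by the interaction alone (0.47 and -0.33). Among 25 genes of insulin signalling and FOXO factors, 4 rose and 3 fell in pgWAT (28.0%) and 1 rose and 1 fell in quadriceps (8.0%). Foxo1 and Foxo3 rose in pgWAT by 0.97 and 0.64 with -0.05 and -0.10 in quadriceps, and Irs1 fell by 1.13 in pgWAT with -0.43 (adjusted p = 0.101 by edgeR) in quadriceps. Of 18 clock genes, 6 rose and 5 fell in pgWAT (61.1%), and 1, Bhlhe41, rose in quadriceps (5.56%). Cry1 (0.57 and -0.40), Nfil3 (1.71 and -0.02), Dbp (-1.37 and -0.13) and Nr1d1 (-0.78 and 0.43) had a called interaction.

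Among 19 genes of glucose uptake and glycolysis, 3 rose and 3 fell in pgWAT (31.6%), and 2 rose in quadriceps (10.5%), where they were Pfkfb3 and Pdp1, the phosphatase that activates pyruvate dehydrogenase (0.50, with 0.15 in pgWAT). Hexokinase 2 (Hk2) fell by 0.76 in pgWAT with -0.05 (SE 0.07) in quadriceps, and Slc2a4, the insulin-responsive transporter GLUT4, was not called in either (-0.04, SE 0.07, and 0.13, SE 0.09). Of 24 genes of lipid synthesis and lipolysis 1 rose and 4 fell in pgWAT (20.8%, near the 15% of all tested genes) and 0 were called in quadriceps. These included Lpin1 (0.68 in pgWAT, -0.02 in quadriceps), Gpam (-0.68 and 0.03) and Mlxipl (-0.65 and -0.18), of which the interaction was called for Lpin1 and Gpam. Of 19 genes of fatty acid oxidation 2 rose and 2 fell in pgWAT (21.1%) and 0 were called in quadriceps. In oxidative phosphorylation 0 of 23 were called in either set by edgeR, and the medians were -0.01 and 0.02.

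Of 21 heat shock and chaperone genes 4 fell in quadriceps (Hspa1a, Hspa1b, Dnajb1 and Dnaja1) and 17 were not called there, and 1 rose and 1 fell in pgWAT (9.52%), with medians of -0.27 and 0.04. The Hspa1a and Hspa1b sequences are almost the same and can share reads, so each value is uncertain. The 2 WT quadriceps libraries rich in heat shock transcripts lie in the group with the higher level. Dnajb1 fell by 2.65 with them and by 0.98 (adjusted p = 0.00757 by edgeR) without them, and its call was lost with limma voom, separate fits and the replicate block (adjusted p up to 0.161). The call of Dnaja1 lay at the threshold (adjusted p = 0.0482 by edgeR). It was lost without these libraries, in 7 of 12 other settings in all, and in 24 of 32 fits that left out 1 library. Of 19 immediate early genes 3 fell in quadriceps (Dusp1, Nr4a3 and Mcl1) and 2 rose and 1 fell in pgWAT, with medians of -0.28 and 0.05. The pgWAT share of 15.8% is near the 15% of all tested genes, while that in quadriceps was also 15.8% against 2.25%. The pgWAT-restricted members were Fosl2 (1.08 in pgWAT, -0.15 in quadriceps) and Klf6 (0.40 and -0.30), and the pgWAT call of Klf6 lay at the threshold (adjusted p = 0.0486 by edgeR) and was lost in 24 of 32 fits that left out 1 library and in 2 of 12 other settings.

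Of 15 cold-inducible and splicing genes 3 rose and 1 fell in quadriceps (26.7%) and 4 rose and 1 fell in pgWAT (33.3%); Srsf3 (0.30) and Tra2a (-0.44) were called in muscle alone. Of 11 interferon and antigen processing genes 2 fell in quadriceps (18.2%) and 4 in pgWAT (36.4%), and 0 rose in either; Irf1 was common to both, and Gbp7 (-0.69) fell in pgWAT. Lymphocyte markers summed to 11 to 32.1 CPM in WT and 6.42 to 12.7 CPM in TG pgWAT, and their part in these differences was not tested. Of 12 genes of NF-κB and the acute phase 2 rose in quadriceps (Nfkbia and Orm3, 16.7%) and 3 rose and 1 fell (Relb, -1.01) in pgWAT (33.3%). Of 7 genes of the integrated stress response 1 fell in quadriceps, Chac1, a glutathione-degrading enzyme gene (-1.03, with -0.47 in pgWAT), and 1 rose and 1 fell in pgWAT, Slc3a2 (0.67) and Ddit3 (-0.70). MAP kinase feedback genes, 10 tested, had 1 lower in quadriceps and 2 higher and 4 lower in pgWAT (60.0%), and of 19 matrix genes 4 rose in pgWAT (21.1%), among them Col4a1 (0.56), with 0 called in quadriceps.

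Libraries of pgWAT at 1 h after CNO (9 WT, 9 TG) took no part in the classes and share the tissue of the 6 h set and the kit of the quadriceps set. They held a median of 1817150 gene counts (976610 to 4852560), against 10723200 in pgWAT at 6 h. Liver transcripts ranged from 40.8 to 2136 CPM in WT and from 25.3 to 8884 CPM in TG libraries at 1 h. Markers of duct epithelium reached 293 CPM in WT and 361 CPM in TG. The part of depth and of these transcripts in the 1 h results was not tested. There 8 of 11087 genes were called (0.0722%), 6 higher (0.0541%) and 2 lower (0.018%), and 3.98% of the 7566 genes also tested in the joint fit had an unadjusted p below 0.05. The 2 that fell were the concordant neighbours Txnl1 (111 ± 5.98 CPM in WT and 55.5 ± 5.91 in TG, SD, n = 9) and Wdr7 (40.9 ± 4.54 and 22.4 ± 3.11), with differences of -1.0 (SE 0.08, adjusted p = 5.68e-08) and -0.87 (SE 0.10, adjusted p = 0.000114) in edgeR's test. The 31 higher concordant genes tested at 1 h had a median of 0.13, with 23 above 0 and 0 called. Of the 7566 genes also tested in the joint fit, 3963 lay above 0. The 22 lower concordant genes, Txnl1 and Wdr7 included, had a median of -0.04, with 12 below 0. Nfkbia was at 583 ± 152 and 814 ± 210 CPM (0.48, adjusted p = 0.871 by edgeR), and Rhob at 169 ± 27.1 and 186 ± 48.5 (0.13).

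The pgWAT-restricted genes that were higher at 6 h had a median of 0.06 at 1 h (188 tested, 135 above 0), and the lower ones 0.04 (147 tested, 61 below 0), against 0.01 for all 7566 joined genes. Of all joined genes with a 6 h difference above 0, 2018 of 3838 lay above 0 at 1 h. Of those with a 6 h difference below 0, 1783 of 3728 lay below 0. Of the pgWAT-restricted genes 0 were called at 1 h by edgeR, and 16 of 335 had an unadjusted p below 0.05 in the direction seen at 6 h. Of these 16, 15 were among the 188 higher genes and 1 was among the 147 lower. Among all joined genes 174 of 7566 met the same rule. Fkbp5 had a difference of 0.34 at 1 h and Hipk1 0.06, while Stim1 was at 106 ± 11.9 and 147 ± 24.2 CPM (0.46, adjusted p = 0.0711 by edgeR). Of the 72 genes left undecided for quadriceps, Ddit4 (0.89, adjusted p = 0.00117), Gadd45g (0.96, adjusted p = 0.0317), Depp1 (1.21, adjusted p = 0.0317) and Gm47121 (0.85, adjusted p = 0.0440) were called higher at 1 h too by edgeR. The 12 opposite genes had the sign of their 6 h difference in 6 cases and a median of -0.06. The quadriceps-restricted genes had the sign of their muscle difference in 20 of 32 at 1 h, with 0 called. By direction, 11 of 17 higher ones lay above 0 and 9 of 15 lower ones below 0, against 3963 of 7566 joined genes above 0.

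Genes with enough counts in 1 set only could not enter the comparison. There were 291 such genes in quadriceps, of which 12 were called in the fit of that set alone (4.12%, 5 higher and 7 lower), and 6580 in pgWAT, of which 866 were called (13.2%, 292 higher and 574 lower). Whether these differ between the tissues was not tested.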

How the data were processed

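The deposited tables hold raw counts per gene from 3′ QuantSeq libraries, as the authors made them. The tools, per the submitters' processing notes, included STAR 2.7.10, cutadapt 1.18, bcl2fastq 2.20.0.422 and UMI-tools 1.1.2, and GRCm38 and GRCm39 are named without a role. The counter, its strand setting, the collapsing of molecular identifiers and the build of each table are not given in the sources used here. Per the labels' protocols, quadriceps and the 1 h pgWAT libraries had molecular identifiers and the 6 h libraries did not.

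The tables were joined on the gene identifier without its version (52338 shared). Rows that name no gene (5 in the quadriceps table and 121 in the 6 h table) were left out, so that gene rows held 73.3 to 76.5% of the quadriceps and 99.8% of the 6 h counts. Genes passing edgeR's filterByExpr in both sets (7779) were scaled by TMM within each set and fitted with edgeR 4.0.16 (limma 3.58.1, R 4.3.3) by the quasi-likelihood test over 4 groups, with Benjamini-Hochberg adjustment at 0.05. CPM are counts scaled to the effective library size. The 1 h libraries had their own fit.

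Genes were named where their mean was at least 5 CPM in each set and they were not predicted models. They were the 8 concordant and up to 6 opposite genes per direction by the larger p of the sets, the 6 restricted genes per direction and up to 3 per list by the interaction p, and a few always given. Other members of the classes and lists are named after their values were seen. Some results are not reported here. The members and lists were chosen with earlier results of these data known. Positions are GRCm38 (GENCODE). Alternatives were DESeq2 1.42.0, limma voom, other scalings and filters, separate fits, thinning, a replicate block, a stricter threshold and leaving out libraries. The depth limits low genes, and counting limits cover counting error only.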

Additional observations from a re-analysis of the deposited data

Results flagged for a closer look

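The genotype difference itself differed between pgWAT at 6 h and quadriceps for 519 genes by the interaction test of edgeR. Among the named genes with opposite directions, the interaction (pgWAT minus quadriceps, log2) was -2.34 for Pfkfb3, -2.15 for Bhlhe41, -1.49 for Hes1, -1.30 for Mtss1, -1.21 for Tob1 and -0.91 for Jup. It was 1.54 for Msc, 0.99 for Glul and 0.73 for Rpp21.

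The rule for single libraries far from the rest of their group has a nominal rate of about 1 in 20, which was not measured here. It flagged 24 of 348 groups of values examined (6.90%). TG replicate 5 of pgWAT stood apart in 5 of them, at 119 CPM for Dusp1, 148 for Fosl2, 406 for Klf6, 73.9 for Dnajb1 and 244 for Atf4, each above the other 5 TG libraries. In quadriceps, WT replicate 10 was high for Dusp1 (448 CPM) and Fosl2 (72.3) and low for Mtss1 (62.2), and WT replicate 2 was high for Dnajb1 (454) and Dnaja1 (268). WT replicate 6 of pgWAT was high for Fkbp5 (74.6) and Errfi1 (25.5).

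The others were 1 to a library. In pgWAT, TG libraries were high for C9orf72 (63.0 CPM) and Mlxipl (42.1), and WT libraries were high for Ddit4 (86.8) and Gbp7 (144) and low for Tmod3 (85.4). In quadriceps, TG libraries were high for Pfkfb3 (193, replicate 10, whose treatment entry names 1 h), Hsph1 (153) and Msc (14.4) and low for Ddit4 (464). WT libraries there were high for Trp53inp1 (57) and Orm3 (3.85) and low for Timp3 (587).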

How the results depend on the processing

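No call of a named gene reversed its direction in the alternatives run, and the signs of other called genes were not compared. The genotype difference in pgWAT at 6 h gave 2034 calls without the filter on low counts, with more genes tested. DESeq2 gave 19 opposite and 53 quadriceps-restricted genes, and the cause was not tested. With pgWAT thinned to the quadriceps depth, the edgeR fit gave 624 pgWAT calls and 311 interaction calls. The classes then held 38 concordant, 9 opposite, 210 pgWAT-restricted and 18 quadriceps-restricted genes. Without the 4 libraries in doubt, an alternative chosen after seeing the data, quadriceps gave 111 calls and 31 genes were concordant, with fewer samples. At an adjusted p below 0.01 the counts were 81 for quadriceps, 307 for the interaction, 22 concordant, 6 opposite, 206 pgWAT-restricted and 16 quadriceps-restricted. Leaving out 1 library at a time gave 134 (without TG replicate 10) to 199 quadriceps calls, 993 to 1212 pgWAT calls, 467 to 563 interaction calls, 36 (without quadriceps TG replicate 9) to 56 concordant, 9 to 15 opposite, 306 to 362 pgWAT-restricted and 26 to 45 quadriceps-restricted genes. The replicate block gave 134 quadriceps calls, 1138 pgWAT calls, 506 interaction calls and 39 concordant genes (37 shared), 11 opposite, 331 pgWAT-restricted and 32 quadriceps-restricted. Samples with the same number share only that number: their deviations correlated at -0.16 to 0.18 in quadriceps, where 2 of 10 matched their own number best, and at -0.14 to 0.13 in pgWAT, where 0 of 6 did. Of 169 calls of named genes, 9 were lost under the replicate block, 9 with limma voom, 12 without the filter and 0 with DESeq2, and of 163 that could be computed 18 were lost with thinning. Depth limits the genes under a few CPM in quadriceps.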
